A study of Mus musculus with 22 samples.

Results

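The comparison described here set the 7 dominant against the 7 submissive male mice of the series. Its members were the columns of the male count table whose names start with um_endres, in which a number is followed by D for a dominant or S for a submissive animal. The labels do not say what this number is. It is read here as the cage, so that each of 7 cages gave 1 library of each rank, and every comparison of cage mates rests on this reading. These were 14 of the 22 libraries of the series, and the other 8 came from females. Libraries are named by the numbers of their labels, and the cage of dominant male 1 and submissive male 1 is called cage 1, up to cage 7. The labels spell the strain of the mice C57B6/J OlaHsd, which differs from the paper's spelling, and they give no treatment. The mice lived in groups of 4 per cage. Rank was set at an age of 10 to 12 weeks by the tube test, in which cage mates meet in a narrow tube and the one that retreats loses. The dominant and the submissive male of a cage were killed together 3 to 4 days later, and total RNA of the right brain hemisphere was sequenced after removal of ribosomal RNA.

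A mouse hemisphere holds cortex, hippocampus, striatum, thalamus and hypothalamus and, if it is dissected with them, cerebellum and brainstem. Rank in groups of male mice is kept up by repeated encounters, and it has been studied in relation to glucocorticoid hormones and to vasopressin, oxytocin and monoamine signalling. Recent neuronal activity is read from immediate-early genes, which are transcribed within minutes of stimulation from promoters bound by CREB and by serum response factor.

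Total counts per library ranged from 12403943 to 15099149 in dominant and from 12851198 to 15805170 in submissive males, and 14737 of 24421 genes passed the expression filter. No pair of libraries of 1 rank agreed within sampling noise (chi-square per gene of 1.87 to 16.6 over 42 pairs). Pituitary hormone genes summed to at most 1.02 CPM, the unit of all levels here (counts relative to the TMM-scaled library size). Of the list of blood genes, 4 haemoglobin genes had 0 counts in all 14 libraries. Nearly all of their exon bases (1112 of 1118 in Hba-a1, 1112 of 1126 in Hba-a2, 630 of 639 in Hbb-bs and 630 of 630 in Hbb-bt) also belong to another annotated gene, so that the 0 says nothing about blood in the tissue.

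One library stood apart. In dominant male 1, Pcp2, a marker of the Purkinje cells that form the output of the cerebellar cortex, had 0 counts, which allows up to 0.212 CPM. The other 6 dominant males had a mean of 36.7 CPM and the submissive males 19.9 to 46.3 CPM. Of the exon bases of Pcp2, 188 also belong to Pet100, and the strand setting of the counting is not given in the sources used here. Gabra6, a GABA receptor subunit of cerebellar granule cells, was at 0.496 CPM in dominant male 1 and at 142 CPM on average in the other 6. Car8, a Purkinje cell protein that binds the IP3 receptor, was at 18.2 CPM against a mean of 344 CPM.

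All 15 Purkinje and all 14 granule cell genes on the lists were lower in this library than the mean of the other 6 dominant males, with medians of -1.05 and -1.69 on the log2 scale. Cortical genes were above that mean in 10 of 12 cases, by a median of 0.22. This was not particular to cortex. Receptors for monoamines and social peptides were above it in 15 of 17 cases (median 0.23) and hypothalamic peptides in 13 of 14 (0.19). The same held for 10 of 10 microglial (0.15) and 11 of 12 striatal genes (0.14). Other lists were also lower in this library, with 11 of 12 choroid plexus genes below that mean (median -0.49), 8 of 9 interferon-stimulated genes (-0.19), 8 of 10 genes of the meninges (-0.19), 15 of 20 glucocorticoid-induced genes (-0.16) and 4 of 7 olfactory bulb genes (-0.34). Oligodendrocyte genes were below that mean in 10 of 10 cases, by a smaller median of -0.07. Of the 16 immediate-early genes 12 were above that mean (median 0.24). The hindbrain list gave little information, because only 3 of its 15 genes passed the filter. One of these, Slc6a5, the glycine transporter of brainstem inhibitory neurons, stood at 7.57 CPM in dominant male 1, the lowest of the dominant males (7.57 to 18.7 CPM) and within the range of 6.91 to 24.3 CPM of the submissive males. All 3 were below the mean of the other dominant males, by a median of -0.75. In total, 126 tested genes (0.855%) lay more than 1 log2 unit below the other dominant males in this library and 8 (0.0543%) more than 1 unit above. In the other 13 libraries, between 12 and 66 genes lay that far below the rest of their rank. Fewer cerebellar cells and less RNA per cell cannot be told apart in bulk tissue. The main results below are also given without this library or its cage.

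**Figure D1:**
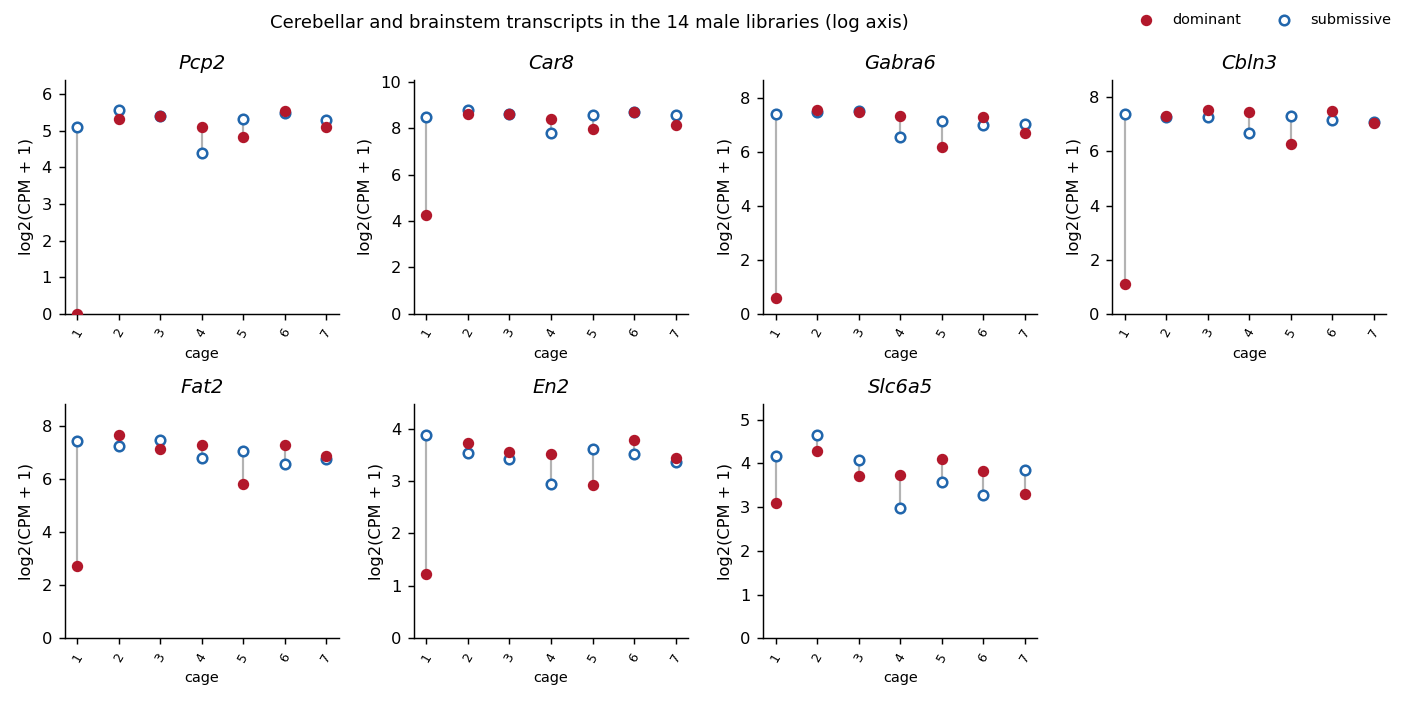
Levels of 7 region markers in the 14 male libraries, as log2(CPM + 1) on the vertical axis (a log scale) and by cage on the horizontal axis, with filled red points for dominant and open blue points for submissive males. Dominant male 1, in the first cage, lies far below all others for Pcp2, Car8, Gabra6, Cbln3, Fat2 and En2, and is the lowest of the dominant males for the brainstem gene Slc6a5, where submissive male 4 is lower.

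The design asked whether social rank went along with differences in gene expression. No gene passed an adjusted p of 0.05 in edgeR's quasi-likelihood test (0 of 14737, 0%) or in the DESeq2 Wald test. At an unadjusted p under 0.05, edgeR had 194 genes (1.32%), of which 97 were higher (0.658%) and 97 lower (0.658%) in dominant males, and DESeq2 had 179. Without dominant male 1 there were 217 (1.47%), 102 higher (0.69%) and 115 lower (0.778%). With the cage as a block there were 338 (2.29%), 155 higher (1.05%) and 183 lower (1.24%). With the block and without cage 1 there were 392 (2.66%), 168 higher (1.14%) and 224 lower (1.52%). All of these shares are below the 5% that the threshold itself allows. The genes below are therefore described by size, list and direction in the 7 cages, and none is a call.

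For abundant genes the differences were narrowly bounded. The median half-width of the 95% interval of the log2 fold change was 0.14 over all tested genes, and for 13470 of them (91.4%) the whole interval lay within 0.5 log2 units of 0. Of the 10366 genes at 10 CPM or more, 9395 (90.6%) had intervals within 0.25 units of 0. For the 276 genes under 1 CPM the median half-width was 0.51, which bounds the differences of these genes less narrowly.

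Rank accounted for 1.34% of the variance of the first principal component (exact permutation test over all assignments of the 14 libraries, two-sided, p = 0.664) and for 1.495% without dominant male 1 (exact permutation p = 0.670). That component held 41.6% of the variance, and its scores were below 0 for all 8 libraries of cages 1 to 4 and above 0 for all 6 of cages 5 to 7. This split of the first component depended on the libraries and the scale. It was kept in 8 and lost in 6 of the 14 fits that left out 1 library (without dominant male 6 or 7 or submissive male 1, 4, 5 or 6), and when log2 CPM replaced the rlog values it stood on the second component, while dominant male 1 had the highest score on the first. The labels do not say in what these sets of cages differ, and both ranks are present in each. Within cages 1 to 4, 239 genes (1.62%) had an unadjusted p under 0.05, 0.826% of all genes higher and 0.792% lower. Within cages 5 to 7 there were 300 (2.02%), 0.897% higher and 1.13% lower.

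Among the immediate-early genes, Egr2, Fos, Arc, Junb and Dusp6 had an unadjusted p under 0.05 with the cage as a block, all higher in the dominant male, which is 5 of 16 listed genes beside 1.05% of all genes in that direction. The same 5 were found without cage 1, beside 1.14%. Without the block none of the 16 had an unadjusted p under 0.05, and 13 of 16 had a positive log2 fold change (median 0.07), beside 48.6% of all tested genes (median 0.00). In cages 1 to 4, 15 of 16 were positive (median 0.11) and Egr2 had an unadjusted p under 0.05, beside 0.826% of all genes higher. In cages 5 to 7, 9 of 16 were positive (median 0.02) and Junb and Arc did, beside 0.897%. The difference between the sets of cages was not tested. The promoters of 4 of the 5 are shown, to set the sites for activity-regulated factors side by side. They run from 250 bases before to 50 after the transcription start, come from RefSeq (GRCm38.p6) and read 5′ to 3′ on the gene's strand. Capitals mark each match, on either strand, to the CREB half-site TGACG or to the CArG box of serum response factor.
Egr2, chr10:67537619-67537918, strand +: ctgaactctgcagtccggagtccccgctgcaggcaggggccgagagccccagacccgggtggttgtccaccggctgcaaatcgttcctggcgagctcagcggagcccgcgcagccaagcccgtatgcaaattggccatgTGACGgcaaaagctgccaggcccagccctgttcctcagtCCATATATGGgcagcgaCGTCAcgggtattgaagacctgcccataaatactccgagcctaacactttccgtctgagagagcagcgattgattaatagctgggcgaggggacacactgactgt
Fos, chr12:85473640-85473939, strand +: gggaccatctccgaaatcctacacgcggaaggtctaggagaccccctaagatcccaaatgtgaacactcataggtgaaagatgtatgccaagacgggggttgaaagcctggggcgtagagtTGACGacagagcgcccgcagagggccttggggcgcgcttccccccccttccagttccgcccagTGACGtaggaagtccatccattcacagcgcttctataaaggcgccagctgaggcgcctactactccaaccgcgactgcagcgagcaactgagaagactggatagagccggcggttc
Junb, chr8:84978699-84978998, strand -: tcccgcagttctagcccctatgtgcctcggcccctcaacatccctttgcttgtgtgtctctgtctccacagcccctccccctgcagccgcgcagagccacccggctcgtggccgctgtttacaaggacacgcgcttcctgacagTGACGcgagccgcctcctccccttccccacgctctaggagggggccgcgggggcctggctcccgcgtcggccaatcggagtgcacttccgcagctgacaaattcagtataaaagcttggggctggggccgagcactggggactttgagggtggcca
Dusp6, chr10:99262981-99263280, strand +: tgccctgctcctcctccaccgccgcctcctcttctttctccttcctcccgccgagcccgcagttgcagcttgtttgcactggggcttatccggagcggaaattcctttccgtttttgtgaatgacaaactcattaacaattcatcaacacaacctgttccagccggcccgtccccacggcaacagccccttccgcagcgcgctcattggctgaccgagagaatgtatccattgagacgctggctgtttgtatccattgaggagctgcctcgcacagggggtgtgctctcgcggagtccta
The window of Egr2 held 2 half-sites and 1 CArG box, that of Fos 2 half-sites, that of Junb 1, and that of Dusp6 no match to either. The half-site occurred in 20.8% and the CArG box in 1.63% of 32817 RefSeq windows of this length. Of 12 listed genes with such a window, 9 held the half-site and 1 the CArG box. Egr2 had 5 transcription starts and each other gene 1. Arc, Egr1, Egr3 and Ier2 had no window, and sites outside the windows were not searched. A match is a run of letters and not a measured site.

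Egr2, a zinc finger transcription factor (chr10:67537869-67542188, mm10), had the smallest p of all genes in both fits with the cage as a block. Its levels in dominant males 1 to 7 were 3.82, 5.46, 6.39, 5.51, 3.68, 2.02 and 2.24 CPM. Submissive males 1 to 7 had 2.86, 3.33, 5.15, 2.75, 2.61, 0.923 and 1.45 CPM. The dominant male was the higher one in 7 of 7 cages, although the ranks overlapped when cages were ignored. The unblocked difference was not past the threshold (log2 fold change 0.61 ± 0.30 SE, edgeR adjusted p = 1.00). It was 0.62 with the block, 0.65 with the block and without cage 1, 0.58 in cages 1 to 4 and 0.68 in cages 5 to 7, each with an adjusted p of 1.00 in edgeR.

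Fos, a subunit of the AP-1 transcription factor and the classical activity marker, had 8.50, 13.1 and 22.6 CPM as its lowest, median and highest level in dominant and 7.39, 12.1 and 23.2 CPM in submissive males. The 8 libraries of cages 1 to 4 all had more Fos than the 6 of cages 5 to 7, with 12.1 CPM as the lowest of the former and 10.3 CPM as the highest of the latter. The SD of the cage means of Fos was 0.57 log2 units, and that of the difference between cage mates 0.25. The dominant male was higher in 5 of 7 cages, with a log2 fold change of 0.19 unblocked, 0.20 with the block and 0.26 also without cage 1. The unblocked value was 0.22 without dominant male 1, 0.06 without dominant male 3 and 0.39 without submissive male 3, its cage mate.

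Arc, a synaptic protein induced by activity that takes part in the removal of AMPA receptors, had 50.3, 92.2 and 130 CPM in dominant and 41.7, 56.1 and 132 CPM in submissive males. It was higher in the dominant male of 5 cages, by 0.28 with the block and 0.29 without cage 1. Junb, another AP-1 subunit, had 23.6 to 39.7 CPM in dominant and 19.7 to 35.5 CPM in submissive males, and was higher in 5 cages with a blocked value of 0.23 (0.28 without cage 1). Dusp6, a phosphatase that switches off ERK, was higher in 6 of 7 dominant males, with a blocked value of 0.13 (0.13 without cage 1). With 1 library left out, the unblocked value ranged from 0.45 to 0.84 for Egr2, from 0.13 to 0.47 for Arc, from 0.16 to 0.32 for Junb and from 0.08 to 0.19 for Dusp6. The lowest values of Arc, Junb and Dusp6 came without dominant male 2, that of Egr2 without submissive male 6, and the highest values of all of them without submissive male 3. The ranges of the ranks overlapped for each of these genes. Not all of the list had this direction, since Npas4, a factor induced by neuronal calcium entry, was higher in the dominant male of 3 cages (blocked log2 fold change -0.07), and Fosb had -0.08. Egr1 was higher in 4 cages, with 0.06.

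**Figure D2:**
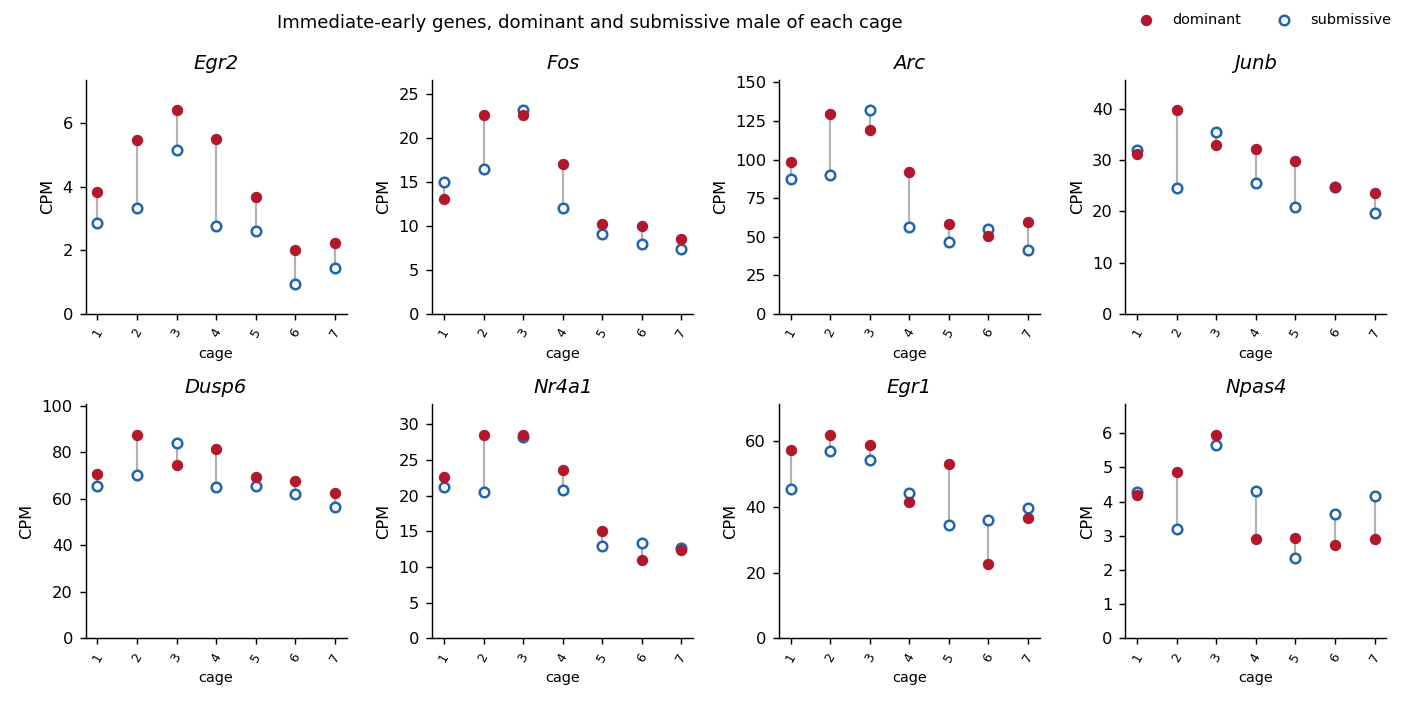
CPM of 8 immediate-early genes on the vertical axis by cage on the horizontal axis, with filled red points for dominant and open blue points for submissive males. Egr2 is higher in the dominant male of all 7 cages, Dusp6 of 6 and Fos, Arc and Junb of 5, while Npas4 is higher in 3.

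Glucocorticoid hormones act on the brain through the receptors Nr3c1 and Nr3c2 and induce a common set of target genes. Of 20 listed targets, all of which passed the filter, 13 had a positive and 7 a negative log2 fold change, with a median of 0.02 beside 0.00 for all genes, and of 0.04 without dominant male 1. None had an unadjusted p under 0.05 with all libraries, without dominant male 1 or with the block. Fkbp5, the chaperone that restrains the receptor, had 14.7 to 21.7 CPM in dominant and 16.03 to 20.95 CPM in submissive males, with a log2 fold change of -0.04 and a 95% interval from -0.22 to 0.14. Sgk1, a kinase induced by the hormone, had 65.2 to 112 CPM in dominant and 64.6 to 75.2 CPM in submissive males, and a log2 fold change of 0.14 (interval from -0.05 to 0.33) that was 0.03 without dominant male 4. Plin4, which coats lipid droplets, was lower in the dominant male of 6 cages and Angptl4, an inhibitor of lipoprotein lipase, of 5, with log2 fold changes of -0.26 and -0.26 (-0.27 and -0.29 without dominant male 1). With the block and without cage 1, Dusp1 (0.26) and Angptl4 (-0.32) had an unadjusted p under 0.05, beside 1.14% of all genes higher and 1.52% lower. In cages 5 to 7, Cdkn1a, a cell cycle inhibitor, and Fam107a, an actin-binding protein, did (-0.30 and -0.11), beside 1.13% of all genes lower. The receptors Nr3c1 and Nr3c2 had log2 fold changes of 0.02 and 0.05, with intervals from -0.05 to 0.08 and from -0.03 to 0.13.

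N6-methyladenosine is a methyl mark on adenosines of mRNA that is set by a METTL3-METTL14 complex, removed by FTO and ALKBH5 and read by YTH proteins. Of 19 listed genes of this machinery 18 passed the filter, 9 with a positive and 9 with a negative log2 fold change, and the largest departure from 0 was 0.06. Their 95% intervals stayed between -0.24 and 0.21. Among the writers, Mettl3, of whose 2020 exon bases 252 also belong to Tox4, had a log2 fold change of 0.02 (interval from -0.16 to 0.21) and Mettl14 of 0.01 (from -0.12 to 0.14). The erasers Fto and Alkbh5 had -0.02 and 0.02. Wtap, which anchors the writer complex, had 0.06, and 0.10 with the block and without cage 1, where it was the 1 gene of the 18 with an unadjusted p under 0.05, beside 1.14% of all genes higher. Its unblocked value ranged from 0.03 without dominant male 3 to 0.09 without submissive male 1. In cages 5 to 7, 14 of the 18 were negative (median -0.02), and Zc3h13, a part of the writer complex, had an unadjusted p under 0.05 (-0.18), beside 1.13% of all genes lower. Cages 1 to 4 had 8 of 18 negative.

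**Figure D3:**
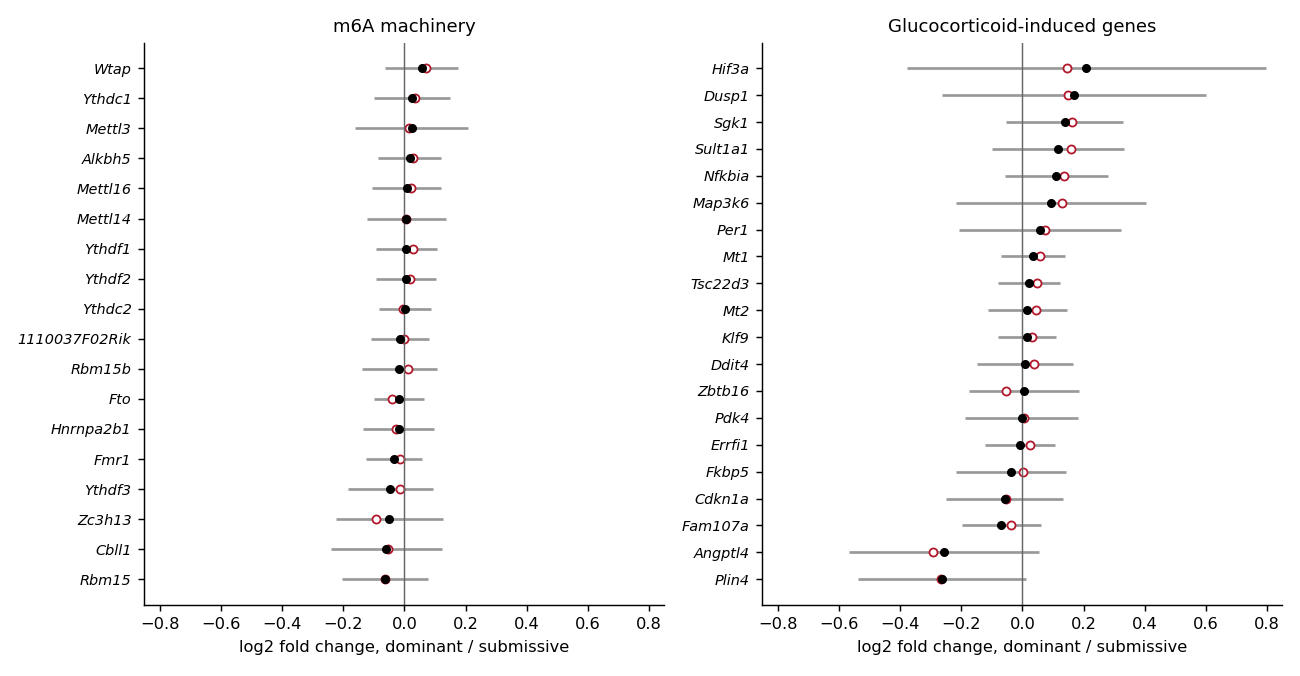
Log2 fold changes (dominant over submissive, horizontal axis) of 18 genes of the N6-methyladenosine machinery and 20 glucocorticoid-induced genes, with black points and 95% intervals for all 14 libraries and open red points for the fit without dominant male 1. Every interval includes 0, and no black point lies farther from 0 than 0.06 for the first list and 0.26 for the second.

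The choroid plexus makes cerebrospinal fluid. Of 12 listed genes of its epithelium 11 had a positive log2 fold change, with a median of 0.08 beside 0.00 for all genes, and all 12 did without dominant male 1 (median 0.15). Ttr, a carrier of thyroid hormone, had 528, 737 and 971 CPM as its lowest, median and highest level in dominant and 405, 572 and 765 CPM in submissive males. It was higher in the dominant male of 5 cages (log2 fold change 0.30 ± 0.13 SE, edgeR adjusted p = 1.00), by 0.37 without dominant male 1. Folr1, the folate receptor that moves folate into the fluid, had 6.15 to 9.75 CPM in dominant and 4.16 to 7.69 CPM in submissive males and was higher in 6 of 7 cages (log2 fold change 0.37 ± 0.14 SE, edgeR adjusted p = 1.00). These were the 2 genes of the list with an unadjusted p under 0.05, beside 0.658% of all genes in that direction. Cages 1 to 4 gave 0.46 for Ttr and 0.50 for Folr1, and cages 5 to 7 gave 0.13 and 0.23. Kl, the klotho coreceptor, and Clic6, a chloride channel protein, were at 0.05 and 0.03. In cages 5 to 7, 8 of 12 listed genes were positive and none had an unadjusted p under 0.05, against 11 of 12 positive in cages 1 to 4. Most of the summed level of the list was Ttr. That sum ranged from 647 CPM, in dominant male 1, to 1142 CPM in dominant and from 518 to 916 CPM in submissive males. The amount of plexus tissue in each hemisphere was not measured, and its part in these differences was not tested.

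Of 10 genes of the meninges, 8 had a negative log2 fold change, with a median of -0.10 and of -0.07 without dominant male 1. Igf2, a growth factor made by meninges and plexus stroma, had 39.9, 45.6 and 53.02 CPM in dominant and 41.7, 52.7 and 57.3 CPM in submissive males (log2 fold change -0.18 ± 0.07 SE, edgeR adjusted p = 1.00). Of 9 interferon-stimulated genes 7 had a positive log2 fold change, with a median of 0.14 (0.16 without dominant male 1) and no unadjusted p under 0.05. Genes of astrocytes, oligodendrocytes and microglia, 10 of each, had medians of -0.02, -0.01 and 0.02. For 12 cortical, 12 striatal and 11 hippocampal genes the medians were 0.02, 0.03 and 0.01, and for 15 circadian clock and 26 glutamate and GABA receptor genes 0.01 and -0.02. In these 8 lists no gene had an unadjusted p under 0.05 with all libraries. Without dominant male 1 their medians lay between -0.02 and 0.00.

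Of 17 receptors for monoamines and social peptides that passed the filter, 2 had an unadjusted p under 0.05, 1 lower and 1 higher in dominant males, beside 0.658% of all genes in each direction. Without dominant male 1 only Adra2a did. Adra2a, the inhibitory alpha-2A receptor for noradrenaline (chr19:54045182-54048982, mm10), had 4.80, 5.86 and 6.76 CPM as its lowest, median and highest level in dominant and 5.67, 6.69 and 8.40 CPM in submissive males. It was lower in the dominant male of 7 of 7 cages, with overlapping ranges (log2 fold change -0.24 ± 0.10 SE, edgeR adjusted p = 1.00). The value was -0.24 with the block, -0.23 without dominant male 1, -0.25 in cages 1 to 4 and -0.22 in cages 5 to 7.

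Avpr1a, the vasopressin receptor through which the peptide acts on social behaviour in rodents, was a gene of low counts, with 0.729 to 1.57 CPM in dominant and 0.379 to 1.18 CPM in submissive males. It was higher in the dominant male of 5 cages (log2 fold change 0.59 ± 0.25 SE, edgeR adjusted p = 1.00). The value was 0.55 without dominant male 1 and 0.57 with the block and without cage 1, and in both fits the unadjusted p was no longer under 0.05. The log2 fold change was 0.07 in cages 1 to 4 and 1.52 in cages 5 to 7. The peptides Avp and Oxt had log2 fold changes of -0.05 and -0.15, with intervals from -0.28 to 0.18 and from -0.66 to 0.36. The oxytocin receptor Oxtr was at -0.02, the dopamine receptors Drd1 and Drd2 at 0.06 and -0.01, and the serotonin receptor Htr1a at 0.03. Tph2 and Slc6a4, which make and take up serotonin in its neurons, spanned 2.21 to 22.7 CPM and 0.870 to 11.5 CPM among submissive males alone. Their log2 fold changes of -0.09 and -0.36 had intervals from -0.92 to 0.74 and from -1.30 to 0.59.

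The cerebellar lists depended on single libraries and on the cages compared. With all libraries, 15 of 15 Purkinje and 14 of 14 granule cell genes had a negative log2 fold change, with medians of -0.16 and -0.15. Without dominant male 1, 12 of 15 and 5 of 14 were negative, with medians of -0.03 and 0.02. Gabra6 was at -0.25 with and -0.03 without this library, and Car8 at -0.30 and -0.09. The fit without it still holds submissive male 4, the lowest of its rank for Pcp2 (19.9 CPM), Car8 (223 CPM) and Cbln3 (103 CPM). Cages 5 to 7, which include neither library, had 15 of 15 and 14 of 14 negative, with medians of -0.18 and -0.12. For granule cell genes this direction was not shared by the 3 cages. Dominant male 5 had the lowest level of the 6 libraries for Gabra6 (70.9 CPM), Fat2 (54.7 CPM) and Cbln3 (77.1 CPM), while dominant male 6 was above its cage mate for each of them (156 against 126 CPM for Gabra6). Without dominant male 5, 13 of 15 Purkinje and 4 of 14 granule cell genes were negative in these cages, with medians of -0.07 and 0.08. Without dominant male 6 the medians were -0.29 and -0.38. With all 6 libraries, Itpr1, the IP3 receptor, Rgs8, a regulator of G protein signalling, and Cacna1g, a T-type calcium channel, had an unadjusted p under 0.05 there (-0.11, -0.18 and -0.19), and so did Zic5, a zinc finger factor of the granule cell list (-0.75), beside 1.13% of all genes lower. The genes with an unadjusted p under 0.05 changed in both directions when 1 library was left out. Without dominant male 5, Cacna1g and Zic5 kept an unadjusted p under 0.05, beside 2.42% of all genes lower, and Fat2 had one in the other direction, higher in dominant males, beside 1.03%. Without dominant male 6, 13 of 15 Purkinje and 9 of 14 granule cell genes had an unadjusted p under 0.05, all lower, beside 2.32% of all genes lower and 1.31% higher.

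**Figure D4:**
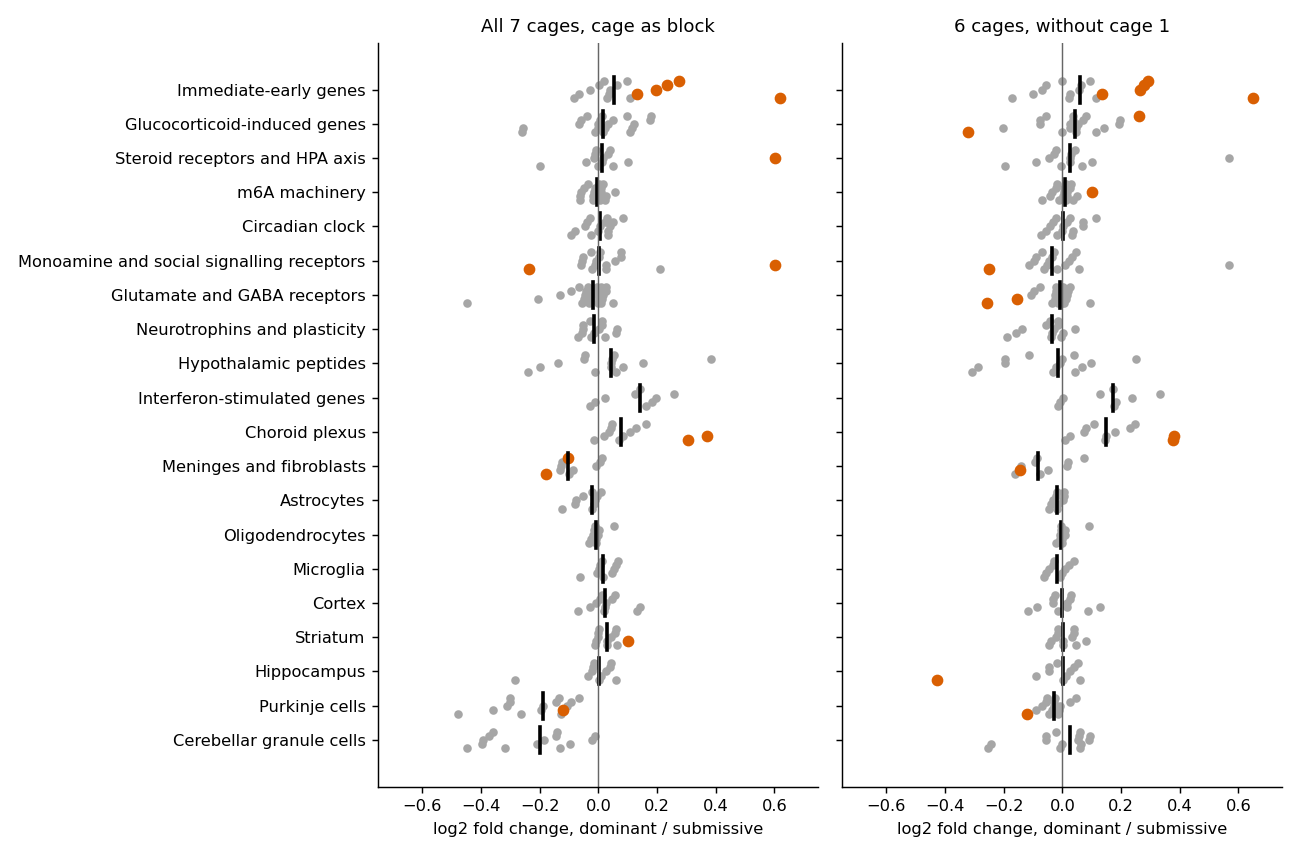
Log2 fold changes (dominant over submissive, horizontal axis) of the genes of 20 lists with the cage as a block, for all 7 cages on the left and without cage 1 on the right, with orange points for an unadjusted p under 0.05 and black bars for list medians. Among the immediate-early genes, 5 are orange and right of 0 in both panels, and the medians of the Purkinje and granule cell lists are -0.19 and -0.20 on the left and -0.03 and 0.03 on the right.

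Across all genes, 87 (0.59%) were higher and 58 (0.394%) lower in the dominant male of every cage. With 7 pairs, the exact two-sided permutation test of 1 gene gives p = 0.0156 at the smallest, and both directions together hold a smaller share of the genes than that, so that 7 of 7 cages describes a gene and does not set it apart. Among the higher ones, Rxrg, a retinoid receptor expressed in striatal neurons, had 11.9, 13.5 and 14.04 CPM in dominant and 10.6, 11.01 and 13.7 CPM in submissive males (log2 fold change 0.20 ± 0.07 SE, edgeR adjusted p = 1.00). Mxd4, an antagonist of MYC, and Irgm1, a GTPase induced by interferon, had log2 fold changes of 0.16 and 0.20 (0.16 and 0.22 without dominant male 1). Among the lower ones, Cth, the enzyme that makes cysteine from cystathionine, had 3.61 to 4.55 CPM in dominant and 4.32 to 5.15 CPM in submissive males (log2 fold change -0.25 ± 0.08 SE, edgeR adjusted p = 1.00). Dchs1, a large cadherin, and Gpc6, a glypican of the cell surface, had -0.19 and -0.22. Scly, which recycles selenium from selenocysteine, and Ube2r2, an enzyme of ubiquitin transfer, had -0.22 and -0.12. Without dominant male 1 these values were 0.19 for Rxrg, -0.25 for Cth, -0.22 for Dchs1 and -0.21 for Gpc6.

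Fbxo17, a subunit of a ubiquitin ligase, had 1.45, 2.11 and 2.32 CPM in dominant and 0.859, 1.25 and 1.91 CPM in submissive males and was higher in 6 of 7 cages (log2 fold change 0.57 ± 0.17 SE, edgeR adjusted p = 1.00), by 0.54 without dominant male 1. Ppp1r3g, which directs a phosphatase to glycogen, had 0.36 and was higher in 6, and Ifnar2, a subunit of the interferon receptor, had -0.21 and was lower in 6 (0.34 and -0.23 without dominant male 1). Cdkn1c, a cell cycle inhibitor from an imprinted region, had 7.01 to 10.1 CPM in dominant and 5.02 to 7.92 CPM in submissive males. It was higher in the dominant male of each cage except cage 1 (log2 fold change 0.28 ± 0.10 SE, edgeR adjusted p = 1.00), by 0.32 without dominant male 1.

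Complete separation of the ranks was found in 1 of 14737 genes (0.00679%), with all dominant below all submissive males, and in none with the opposite order (0%). This gene, Tnfsf13b, which encodes the B cell survival factor BAFF and was picked after its values were seen, had 1.59 to 1.98 CPM in dominant and 2.02 to 2.78 CPM in submissive males (log2 fold change -0.35 ± 0.11 SE, edgeR adjusted p = 1.00, and -0.35 without dominant male 1).

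**Figure D5:**
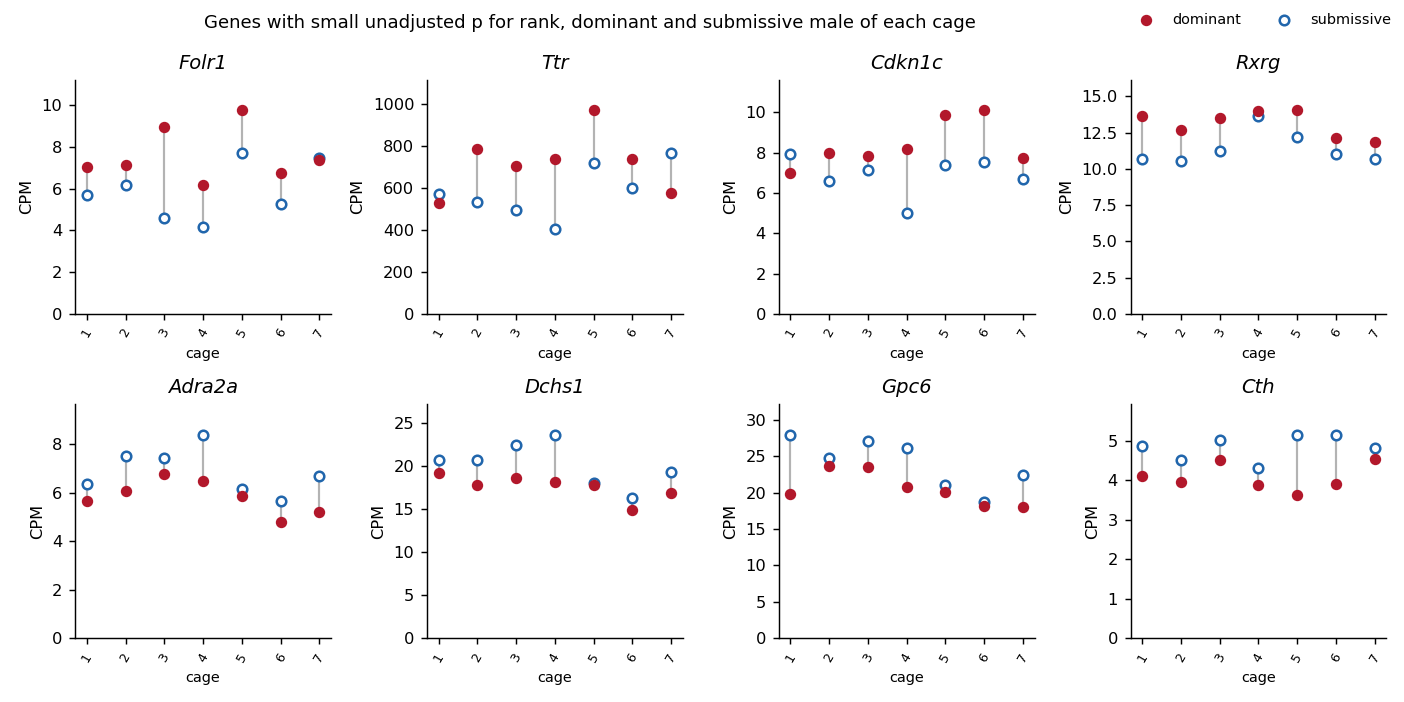
CPM of 8 genes on the vertical axis by cage on the horizontal axis, with filled red points for dominant and open blue points for submissive males. Rxrg is higher, and Adra2a, Dchs1, Gpc6 and Cth are lower, in the dominant male of all 7 cages, while Folr1 and Cdkn1c are higher in 6 and Ttr in 5.

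The 8 females shared no library with the males, and their count columns start with jgu_gerber and not with um_endres. According to the paper, intermediate females were also mixed into new groups and ranked again. A difference between the sexes can therefore not be told apart from one between these sets of libraries or their group histories. Among females, 14 genes passed an adjusted p of 0.05 in edgeR (0.0942%), and 10.5% had an unadjusted p under 0.05, 6.43% higher and 4.08% lower in dominant animals. Of 14669 genes tested in both sexes 45.6% had the same sign. Of the 190 with an unadjusted p under 0.05 in males 43.2% did, and 38.9% of the 334 with the cage as a block. Of the 1553 with an unadjusted p under 0.05 in females 34.3% did. Both sexes had an unadjusted p under 0.05 for 9 genes (4.74% of the male and 0.58% of the female list), 2 of them with the same sign, Foxo6 and Dlec1. Ttr and Folr1 were among the other 7, with -0.20 and -0.35 in females, where all 12 choroid plexus genes had a negative log2 fold change. The difference between the sexes had an adjusted p of 0.999 for Folr1 and 0.999 for Ttr in edgeR. Syvn1, a ubiquitin ligase of the endoplasmic reticulum, had -0.24 in males, lower in 7 of 7 cages, and 0.22 in females. Of the 16 immediate-early genes, 15 had a positive log2 fold change in females, with 0.42 for Egr1, 0.42 for Fosb and 0.13 for Egr2. For the interaction of rank and sex, no gene passed an adjusted p of 0.05 in edgeR (0 of 15233, 0%) or DESeq2, and 505 (3.32%) and 480 had an unadjusted p under 0.05.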

How the data were processed

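Stranded, rRNA-depleted total RNA libraries were sequenced from the right hemispheres of 14 male mice. According to the study's methods and the labels, reads were checked with FastQC 0.11.8, trimmed with cutadapt 1.15, mapped to mm10 with STAR 2.6.0a and counted with featureCounts 1.6.2. The deposited values are raw counts per gene, made by the authors, and the strand setting of the counting is not given in the sources used here. The deposited gene lengths served only as exon lengths beside overlapping genes.

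Genes were filtered with filterByExpr (minimum count 10, minimum total 15) and TMM-scaled. Rank was tested with edgeR 4.0.16 (quasi-likelihood, Benjamini-Hochberg adjustment, R 4.3.3) after tests on simulated data, with DESeq2 1.42.0 as an alternative. Principal components used rlog values of the 500 most variable genes. Alternatives covered scaling, filter, cage block, cage sets and left-out libraries. Libraries were paired by the number in their names, read as the cage, whose dominant and submissive male were killed together. Departures of cage mates from the mean of their rank correlated at 0.18 on average (from -0.03 to 0.27 over 7 pairs), and at 0.22 (from 0.16 to 0.28 over 6 pairs) without cage 1, against -0.03 and -0.04 for other pairs.

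Members and 31 gene lists were chosen with earlier results of these data known. Genes were named from these lists, from the 12 with the smallest p per direction, from the 8 per direction without dominant male 1 and with the block, and from the 10 farthest below and above in dominant male 1 (prior count 2, mean of at least 5 CPM). Further lists, whose median log2 fold change for rank is not given above, had such medians between -0.07 and 0.07. These were dopamine and noradrenaline neurons, hypothalamic peptides, thalamus, olfactory bulb, ependymal cilia, endothelium, interneurons, neurotrophins, and cold-inducible and heat shock genes. Intervals of counts of 0 cover counting error only.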

Additional observations from a re-analysis of the deposited data

Results flagged for a closer look

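In 12 of 66 groups (33 named genes in each rank of 7 males), the highest or lowest library lay farther from the next one than Dixon's 95% limit of 0.568 of the range. Of these, 6 are cerebellar genes in dominant male 1. That library and these genes were chosen with its low cerebellar levels known, so the gaps are given as a description and not as a test. They were 0.912 of the range for Pcp2, 0.832 for Gabra6, 0.831 for Car8, 0.826 for Cbln3, 0.696 for En2 and 0.631 for Fat2.

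The other 6 gaps stand beside the about 1 in 20 groups that chance would flag if groups were independent and genes chosen blind. Neither holds here, since groups of 1 rank share their libraries and some genes were named for a small p. These gaps too are a description and not a test. Submissive male 4 was the lowest of its rank for 5 genes. Among cerebellar genes the gap was 0.686 for Car8 (223 CPM), 0.625 for Pcp2 (19.9 CPM) and 0.581 for Cbln3 (103 CPM). The same library was lowest for Ppp1r3g (gap 0.690, 2.51 CPM) and Cdkn1c (gap 0.596, 5.02 CPM), whose log2 fold changes without it were 0.32 and 0.22. Dominant male 4 was the highest of its rank for Sgk1 (gap 0.694, 112 CPM), whose log2 fold change without it was 0.03.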

How the results depend on the processing

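No gene passed an adjusted p of 0.05 for rank in males in any alternative. The count at an unadjusted p under 0.05 (194) was 436 without the expression filter, where more genes were tested, 338 with the replicate block, 392 with the block and without cage 1, 300 in cages 5 to 7 and 333 with a term for the 2 sets of cages. It lay between 175 and 337 when 1 library was left out, with 337 without dominant male 2. Apart from the filter, the cause was not tested. The block changed no call at the adjusted threshold. For the interaction of rank and sex, the count at an unadjusted p under 0.05 (505) was 1051 with the block and 669 without dominant male 1.

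The number of genes with 1 direction in all cages (145) lay between 254 and 398 when 1 cage was left out, since fewer cages then have to point the same way. The share of the first component explained by rank lay between 0.0317% and 6.01% with a library left out and was 3.29% with cage means removed (replicate block) and 8.04% with log2 CPM (exact permutation p = 0.404). With cage means removed, rank explained 40.1% of the second component (exact permutation within cages, p = 0.109), and also without cage 1 it explained 11.9% of the first (exact permutation p = 0.344) and 25.8% of the second (exact permutation p = 0.188).

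Without dominant male 1 the log2 fold changes of Cbln3 (0.0472), Fat2 (0.0357) and En2 (0.0177) turned positive. With the block and without cage 1 they were 0.0532, 0.0565 and 0.0953, and Slc6a5 was 0.0466. Slc6a5 was also positive in cages 5 to 7 (0.202, and 0.192 with the block, chosen after seeing the data) and without submissive male 2 (0.0574). With 1 library left out, Cbln3 ranged from -0.28 to 0.0472, Fat2 from -0.36 to 0.0357, En2 from -0.28 to 0.0177 and Slc6a5 from -0.25 to 0.0574. In cages 5 to 7, with each of their 6 libraries left out in turn (chosen after seeing the data), the median of the Purkinje list ranged from -0.29 to -0.07 and that of the granule cell list from -0.38 to 0.0831. The other 29 of 33 named genes kept their sign in every alternative run for single genes. Depth limits genes of low counts such as Avpr1a.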

Other observations

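Among genes that no list held, Melk, a kinase of dividing progenitors, and Tlr9, the innate receptor for unmethylated DNA, were higher in the dominant male of 7 of 7 cages, with log2 fold changes of 0.62 and 0.64 (edgeR adjusted p = 1.00 for each). Both were rare, with at most 1.91 and 1.49 CPM in any dominant male. Dnmt3b, a DNA methyltransferase, had a log2 fold change of -0.37 with all libraries and -0.62 without dominant male 1.

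Some genes were higher in dominant male 1 than in the other dominant males, among them BC030499 (by 0.91 log2 units), Oxt (0.83) and Col24a1 (0.67). Sycp1 and Crtam, known for roles in meiosis and in immune cells, were among the 10 genes farthest below, at 0 and 0.142 CPM against means of 5.68 and 10.8 CPM in the other 6.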
